A study of Homo sapiens with 9 samples.

Results

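TNFSF10, the secreted and cell-surface death ligand also called TRAIL, was examined in HepG2 cells together with its receptors TNFRSF10A, TNFRSF10B, TNFRSF10C and TNFRSF10D and with the receptor-proximal proteins FADD, CASP8 and CFLAR. The members were all probe sets that carry 1 of these 8 gene symbols and no other symbol, which gave 34 of the 54675 probe sets on the array. A further 2 probe sets that name TNFRSF10C together with a second gene were left out. HepG2 is an established human hepatoma line, and the 9 Affymetrix arrays fell into 3 groups of 3: 100 nM GW7647 for 6 h, 100 nM GW7647 for 24 h, and the DMSO vehicle. GW7647 is a synthetic ligand that activates the nuclear receptor PPARα, a regulator of fatty acid oxidation. All cells grew in serum-containing medium free of phenol red. The vehicle arrays are shared by the 6 h and the 24 h comparison, and no source used here says how long vehicle was applied, so ligand exposure and time in culture change together. The values are log2 RMA signals, in which a difference of 1 is a 2-fold difference in signal, and levels are compared only within a probe set.

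TNFSF10 binds as a trimer to its receptors. TNFRSF10A and TNFRSF10B carry an intracellular death domain, recruit the adaptor FADD and through it pro-caspase-8, the product of CASP8, which starts apoptosis. TNFRSF10C and TNFRSF10D bind the ligand without a complete death domain and are known as decoy receptors. CFLAR encodes cellular FLIP, a relative of caspase-8 without protease activity that competes for the same complex. The 4 receptor genes neighbour one another on 1 chromosome, as do CFLAR and CASP8 on another. In liver the ligand is best known from natural killer cells and T cells, and its gene is a textbook target of interferons and of FOXO transcription factors, while TNFRSF10B is a target of p53 and of the stress factor CHOP.

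TNFSF10 had the largest differences of all members in every comparison, and its promoter is therefore shown. It comprises the 250 bases before the RefSeq start of the gene (GRCh38.p14, chr3:172523431-172523680, minus strand), and capitals mark matches, on either strand, to TATAAA and to a pair of GAAA letters with 2 bases between them.

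TNFSF10 promoter: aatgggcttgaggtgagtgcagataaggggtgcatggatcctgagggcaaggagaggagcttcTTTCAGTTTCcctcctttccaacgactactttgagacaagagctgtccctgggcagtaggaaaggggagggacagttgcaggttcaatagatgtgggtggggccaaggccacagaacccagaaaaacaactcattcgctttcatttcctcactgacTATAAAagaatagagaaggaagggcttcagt

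The paired GAAA letters, the core of the element bound by interferon-activated factors, lie on the opposite strand 187 to 178 bases before the start, and 3.02% of 35114 promoter windows of this length hold them. TATAAA lies 31 to 26 bases before the start and is in 10.7% of windows. A direct repeat of AGGTCA with 1 base between, an idealised site of PPARα with its partner RXR, was not among these letters and is in 0.0171% of windows. A single AGGTCA (12.1% of windows), TTCNNNGAA (6.57%), the FOXO motif GTAAACA (2.98%) and GGGCGG (42.6%) were not in the TNFSF10 window either. GGGCGG was in 2 of 4 windows of CFLAR, 1 of 3 of CASP8 and the 1 window of FADD. A match is a description of the letters and not evidence of binding.

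TNFSF10 had the lowest signal after 6 h of GW7647 and an intermediate one after 24 h. On probe set 202688_at, the brightest of the 3 for this gene, the 6 h arrays read 6.85, 6.78 and 6.81, the 24 h arrays 7.49, 7.89 and 7.71, and the vehicle arrays 8.19, 8.05 and 8.18 log2 units. No array of any group fell within the range of another group, and the 24 h arrays spread the most. Mean signals were 6.81 ± 0.03 at 6 h, 7.70 ± 0.20 at 24 h and 8.14 ± 0.07 in vehicle (SD, n = 3 arrays each). Less RNA per cell and fewer cells that hold the transcript cannot be told apart in bulk arrays.

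The gene was chosen for its low 6 h values, so the comparison of 6 h with vehicle is a description and carries no test for any member. By the estimates of the fit, TNFSF10 was 2.51 times lower at 6 h than in vehicle on 202688_at. The choice of the gene favours a larger difference in this comparison, so no confidence interval is given. Probe set 202687_s_at read 4.65, 5.12 and 5.40 at 6 h, 5.79, 5.92 and 5.47 at 24 h, and 6.33, 6.16 and 6.14 in vehicle. Its groups again did not overlap, although the 6 h arrays lay further apart than on 202688_at. Probe set 214329_x_at read 5.03, 4.97 and 5.28 at 6 h, 5.65, 5.73 and 5.63 at 24 h, and 5.89, 5.63 and 5.88 in vehicle. On it the 24 h and vehicle arrays overlapped. The log2 difference at 6 h was -1.33 ± 0.09, -1.15 ± 0.17 and -0.71 ± 0.10 (SE) on these 3 probe sets. The endings _s_at and _x_at mark probe sets whose probes can also match other transcripts. Under 17 alternative settings the 6 h difference on 202688_at stayed between -1.37 and -1.30. Several of these settings, such as the replicate block, cannot change a difference of group means. The range therefore says little about stability, and nothing about the choice of the gene.

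**Figure D1:**
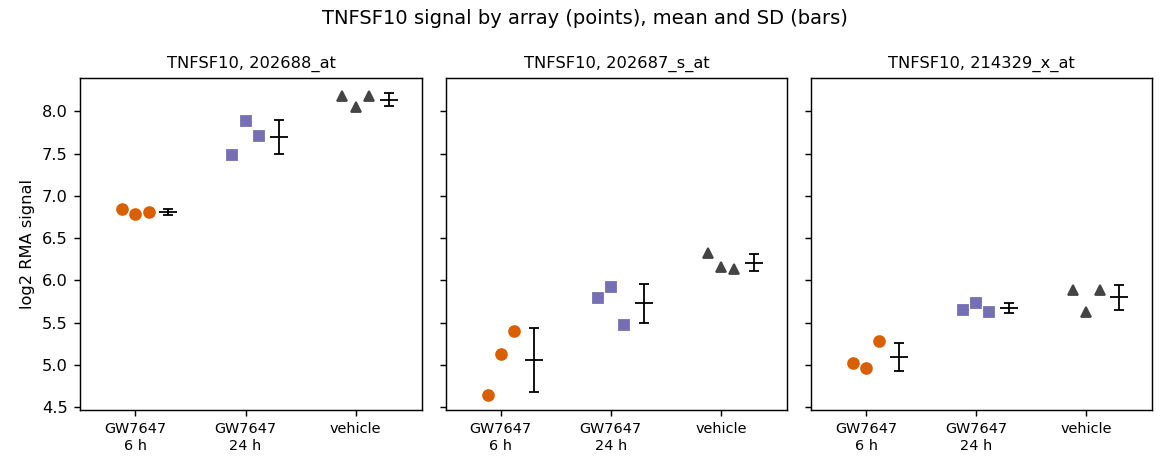
TNFSF10 signal (log2 RMA units) on its 3 probe sets, with 1 point per array and the mean ± SD of 3 arrays beside each group (GW7647 6 h, GW7647 24 h, vehicle). On 202688_at the 6 h arrays (6.78 to 6.85), the 24 h arrays (7.49 to 7.89) and the vehicle arrays (8.05 to 8.19) form separate bands, whereas on 214329_x_at the 24 h and vehicle arrays overlap.

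At 24 h TNFSF10 remained below vehicle on 202688_at, by a log2 difference of -0.44 ± 0.09 (SE, limma, Benjamini-Hochberg adjusted p = 0.0204), which is 1.36 times lower (95% confidence interval 1.18 to 1.56). The difference was -0.48 ± 0.17 on 202687_s_at (adjusted p = 0.155) and -0.13 ± 0.10 on 214329_x_at (adjusted p = 0.561), neither past the threshold of 0.05. The call on 202688_at was lost without vehicle replicate 1 (-0.42, adjusted p = 0.0776) or 3 (-0.42, 0.0588), without 24 h replicate 1 (-0.34, 0.0546) or 3 (-0.45, 0.0588), and when the fit held only the 2 compared groups (adjusted p = 0.0772). The comparison shares its vehicle arrays with the one TNFSF10 was chosen by, a choice that favours a lower value here, so its p-values are not independent support.

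TNFSF10 was higher at 24 h than at 6 h on all 3 probe sets. The log2 difference was 0.88 ± 0.09 on 202688_at (limma adjusted p = 2.59e-04), 0.67 ± 0.17 on 202687_s_at (adjusted p = 0.0337) and 0.58 ± 0.10 on 214329_x_at (adjusted p = 0.00395). On 202688_at this is a 1.85-fold difference of the group means (95% confidence interval 1.60 to 2.12), and every 24 h array lay above every 6 h array. The calls on 202688_at and 214329_x_at held in all 9 fits that left out 1 array, with adjusted p up to 0.00273 and 0.0250. That on 202687_s_at held in 4 of the 9 (adjusted p up to 0.135) and was lost without vehicle replicate 1, 6 h replicate 1 or 2, or 24 h replicate 1 or 2. It was also lost when the fit held only the compared groups (0.0689) or carried the replicate number as a blocking term, a replicate block (0.0544). This comparison shares the 6 h arrays on whose low values the gene was chosen, a choice that favours a higher value at 24 h, so these p-values are not independent support either.

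Over the 34 member probe sets, 5 were called between 24 h and 6 h, which is 14.7% of them, against 7.66% of all 54613 probe sets tested. Of these, 4 were higher at 24 h, the 3 of TNFSF10 and 1 of TNFRSF10D, against 4.82% of all probe sets, and 1 of TNFRSF10A was lower, against 2.84%. Since 3 of the 5 belong to the gene chosen on the same 6 h arrays, these shares are a description and nothing is read from them. Between 24 h and vehicle 1 of 34 was called (2.94%), against 4.39% of all, and it was lower, against 1.8% of all. Between 6 h and vehicle no calls are counted for the members, because TNFSF10 was chosen on that comparison. Of all probe sets, 1.47% were called there and 0.806% were called lower. The arrays of the compared groups did not overlap on 16 of 34 between 24 h and 6 h (26.8% of all probe sets). Between 24 h and vehicle they did not overlap on 7 of 34 (18.6% of all). No such count is given between 6 h and vehicle, for the same reason as with the calls. TNFSF10 probe sets are in both counts, so nothing is read from these shares either. Probe sets of 1 gene share a transcript and are not independent, and CFLAR alone supplied 14 of the 34. The median log2 difference of the members was 0.05 between 24 h and 6 h, against -0.02 for all probe sets, and -0.02 between 24 h and vehicle, against -0.005 for all.

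**Figure D2:**
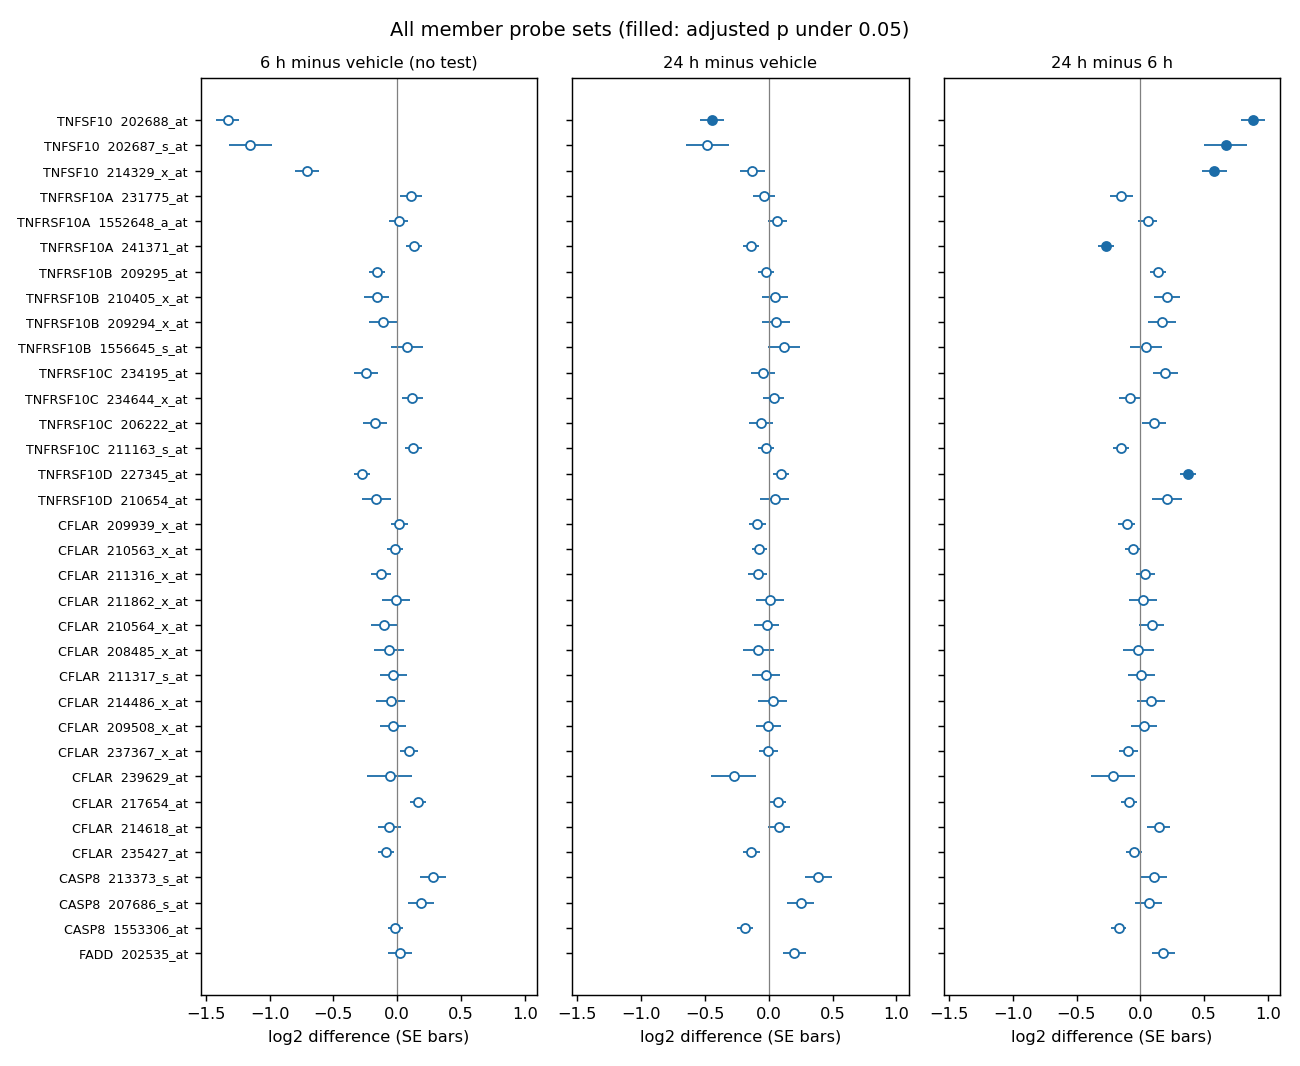
Log2 difference of each of the 34 member probe sets, with SE bars, for 6 h minus vehicle (no test shown), 24 h minus vehicle and 24 h minus 6 h, all on 1 horizontal scale. Filled points have a limma adjusted p under 0.05. The 3 TNFSF10 probe sets stand to the left at 6 h (-1.33 to -0.71) and to the right for 24 h minus 6 h (0.58 to 0.88), and the 14 CFLAR probe sets lie near 0 throughout.

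Among the death domain receptors, TNFRSF10B, a direct p53 target, had no probe set past the threshold. On 209295_at, its brightest probe set, the arrays read 10.52, 10.49 and 10.49 at 6 h, 10.60, 10.75 and 10.57 at 24 h, and 10.66, 10.63 and 10.69 in vehicle. The 6 h arrays lay below both other groups, by 0.16 ± 0.06 log2 units relative to vehicle, while the 24 h and vehicle arrays overlapped. The log2 difference was -0.02 ± 0.06 between 24 h and vehicle (limma adjusted p = 0.897) and 0.14 ± 0.06 between 24 h and 6 h (adjusted p = 0.260). The 95% confidence interval of the ratio of 24 h to vehicle was 0.893 to 1.08. The other 3 probe sets gave 0.05 to 0.12 between 24 h and vehicle.

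For TNFRSF10A, the other receptor with a death domain, the 3 probe sets did not give the same picture. On 241371_at the arrays read 7.26, 7.38 and 7.41 at 6 h, 7.11, 7.11 and 7.01 at 24 h, and 7.21, 7.23 and 7.21 in vehicle. The 6 h arrays were the highest and the 24 h arrays the lowest, with no overlap between groups. The difference between 24 h and 6 h was -0.27 ± 0.06 (limma adjusted p = 0.0238), opposite in sign to that of TNFSF10. The call was lost without 6 h replicate 2 or 3 or a single 24 h array (adjusted p up to 0.0987) and under a replicate block (0.0520). The brighter probe sets 231775_at and 1552648_a_at gave -0.15 ± 0.09 (adjusted p = 0.392) and 0.06 ± 0.07 (adjusted p = 0.732) for the same comparison. Between 24 h and vehicle the 3 probe sets ran from -0.14 to 0.07, and none passed.

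The decoy receptor TNFRSF10D was higher at 24 h than at 6 h. Probe set 227345_at read 8.08, 7.99 and 7.99 at 6 h, 8.32, 8.42 and 8.45 at 24 h, and 8.28, 8.29 and 8.32 in vehicle. The 6 h arrays lay below all others, and the 24 h and vehicle arrays met at their edges. The difference between 24 h and 6 h was 0.38 ± 0.06 log2 units (limma adjusted p = 0.00360), a 1.30-fold difference (95% confidence interval 1.18 to 1.42), and each of the 9 fits that left out 1 array called it (adjusted p up to 0.0223). The difference between 24 h and vehicle was 0.10 ± 0.06 (adjusted p = 0.470). At 6 h the signal was 0.28 ± 0.06 log2 units under vehicle. The second probe set, 210654_at, read 6.73, 6.54 and 6.81 at 6 h, 6.85, 6.89 and 6.97 at 24 h, and 6.64, 7.14 and 6.79 in vehicle. Its difference between 24 h and 6 h was 0.21 ± 0.12 (adjusted p = 0.356), with the vehicle arrays spread across both other groups.

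The decoy receptor TNFRSF10C, which is anchored in the membrane by a lipid, had 4 probe sets, 3 of them below the median signal of all probe sets. None passed in either tested comparison, and the smallest adjusted p was 0.216. Their differences ran from -0.06 to 0.04 log2 units between 24 h and vehicle and from -0.15 to 0.20 between 24 h and 6 h. On 234195_at, the brightest, the arrays read 5.68, 5.82 and 5.50 at 6 h, 5.89, 5.88 and 5.82 at 24 h, and 5.82, 6.08 and 5.82 in vehicle.

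FADD, the adaptor, had a single probe set, 202535_at. Its arrays read 9.61, 9.41 and 9.48 at 6 h, 9.66, 9.73 and 9.64 at 24 h, and 9.28, 9.64 and 9.51 in vehicle. The 24 h arrays were the highest group, just above the highest 6 h array and the highest vehicle array. The difference was 0.20 ± 0.09 log2 units between 24 h and vehicle (limma adjusted p = 0.292) and 0.18 ± 0.09 between 24 h and 6 h (adjusted p = 0.307), neither past the threshold.

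CASP8, the initiator caspase of the pathway, had a higher mean with GW7647 at both times on its 2 bright probe sets. The 24 h difference from vehicle did not pass the test on either, and the 6 h difference was not tested. Probe set 213373_s_at read 9.05, 8.97 and 9.03 at 6 h, 9.11, 9.29 and 8.97 at 24 h, and 8.87, 8.51 and 8.83 in vehicle. Every GW7647 array lay above every vehicle array. The difference between 24 h and vehicle was 0.39 ± 0.10 log2 units (limma adjusted p = 0.0613), a ratio of 1.31 (95% confidence interval 1.12 to 1.53). It passed in 3 of 17 alternatives, namely with an intensity trend and robust prior (adjusted p = 0.0232), among probe sets above the median signal (0.0310) and with 1 probe set per gene (0.0381). The highest adjusted p over the alternatives was 0.201. Probe set 207686_s_at read 8.10, 8.15 and 8.09 at 6 h, 8.18, 8.17 and 8.19 at 24 h, and 7.68, 8.18 and 7.93 in vehicle, a difference of 0.25 ± 0.10 between 24 h and vehicle (adjusted p = 0.245). Leaving out vehicle replicate 2 gave a difference of 0.38 that passed (adjusted p = 0.0268). The dim probe set 1553306_at ran the other way, with -0.19 ± 0.06 (adjusted p = 0.130).

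CFLAR, the inhibitor of the receptor complex, had 14 probe sets and none passed in either tested comparison. Of the 14, 10 carry the endings of shared probes and 3 lay below the median signal of all probe sets. Their differences ran from -0.27 to 0.08 log2 units between 24 h and vehicle, with a median of -0.02, and from -0.21 to 0.14 between 24 h and 6 h. The smallest adjusted p was 0.314 and 0.431 in these comparisons. Probe set 209939_x_at, the brightest, read 10.37, 10.27 and 10.22 at 6 h, 10.18, 10.27 and 10.09 at 24 h, and 10.26, 10.23 and 10.31 in vehicle. The 95% confidence interval of its ratio of 24 h to vehicle was 0.849 to 1.04. Probe set 239629_at had the widest spread in vehicle, with 6.52, 6.07 and 6.99.

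**Figure D3:**
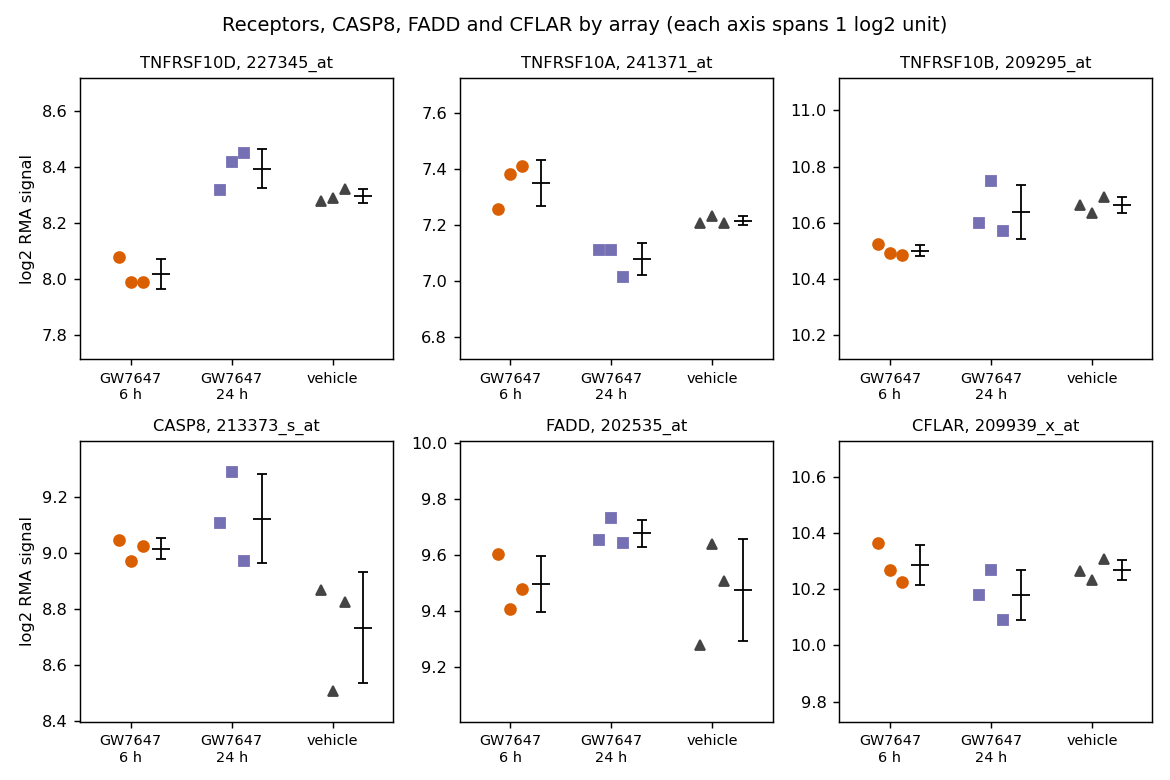
Signal (log2 RMA units) by array for 1 probe set each of TNFRSF10D, TNFRSF10A, TNFRSF10B, CASP8, FADD and CFLAR, with the mean ± SD of 3 arrays beside each group (GW7647 6 h, GW7647 24 h, vehicle); each vertical axis spans 1 log2 unit. Each gene is shown by its called probe set where it has one, and otherwise by its brightest. TNFRSF10D at 6 h (7.99 to 8.08) lies below its other arrays, TNFRSF10A at 24 h (7.01 to 7.11) below its other arrays, and CASP8 in vehicle (8.51 to 8.87) below its GW7647 arrays. TNFRSF10A is shown on 241371_at, and its brighter probe sets 231775_at and 1552648_a_at, not shown, were not called.

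Vehicle replicate 2 was the lowest vehicle array for TNFSF10 on 202688_at, CASP8 on 213373_s_at and CFLAR on 239629_at. It was the highest for CASP8 on 207686_s_at, TNFRSF10B on 210405_x_at (9.74), TNFRSF10D on 210654_at and FADD. Whether this moved with RNA quality was not tested. Pearson r across probe sets was 0.997 to 0.999 between arrays of 1 group and 0.995 to 0.998 between groups, and probe sets are not independent replicates. The hepatocyte and hepatoma markers were bright: 14 of 14 measured markers, among them ALB and AFP, lay above the median signal, at 9.47 to 15.0 log2 units averaged over the arrays. Of these, 0 rose and 1 fell at 6 h, where 1.03% of all genes were called lower. The fall was FOXA2 (limma adjusted p = 0.0306). Its call was lost without any 1 vehicle or 6 h array, under a replicate block and with only the compared groups. At 24 h against vehicle 0 rose and 3 fell, where 1.82% of all genes were called lower. The 3 were FGB (-0.67), TTR (-0.55) and FGG (-0.44), all secreted liver proteins. Markers of immune cells that carry TNFSF10 ran from 4.26 to 7.70, with 8 of 14 below the median signal. At 6 h 0 of these rose and 1 fell (CD14, which hepatocytes also make, -0.29 ± 0.06, adjusted p = 0.0387, a call lost in each of the 9 fits that left out 1 array), and 0 of 14 passed at 24 h against vehicle in limma. In the comparison of 24 h with 6 h 1 immune marker rose and 0 fell, and 1 hepatocyte marker rose and 3 fell. Their part in the TNFSF10 result was not tested.

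The rest of the pathway was followed in 5 lists, each gene by its brightest probe set with a single symbol. Of all 19775 genes so represented, 2.07% were called at 6 h against vehicle (1.04% higher and 1.03% lower), 5.62% at 24 h against vehicle (3.8% and 1.82%) and 10.4% between 24 h and 6 h (7.04% and 3.35%).

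Other death ligands and receptors counted 2 rises and 0 falls among 17 measured at 6 h, and 0 rises and 1 fall at 24 h against vehicle. It had 0 rises and 2 falls between 24 h and 6 h. The list's median log2 difference was 0.09 at 6 h and 0.05 at 24 h, against 0.004 and 0.003 for all genes. The fall was that of FAS, the receptor of the related death ligand FASLG, which uses the same FADD and caspase-8 complex. FAS read 9.56, 9.55 and 9.38 at 6 h, 8.90, 9.11 and 9.0 at 24 h, and 9.44, 9.36 and 9.49 in vehicle. All 24 h arrays lay below all others, and the differences were -0.43 ± 0.08 between 24 h and vehicle (limma adjusted p = 0.00881) and -0.49 ± 0.08 between 24 h and 6 h (adjusted p = 0.00256). The first held in all 9 fits that left out 1 array, and the 4 other FAS probe sets had -0.59 to -0.27. At 6 h TNFRSF12A, the receptor of TWEAK, rose by 0.47 ± 0.08 (adjusted p = 0.0207) and TNFRSF21, a death domain receptor, by 0.29 ± 0.06 (adjusted p = 0.0270). TNFRSF12A did not pass without any 1 of the 6 h arrays (adjusted p up to 0.102). TNFRSF21 did not pass in 7 of the 9 fits, all but those without 24 h replicate 1 or 2 (up to 0.132). Both lost the call when the fit held only the compared groups, TNFRSF21 also under a replicate block. TNFRSF11B, a soluble decoy that also binds TNFSF10, did not pass at 24 h against vehicle (0.21 ± 0.11, adjusted p = 0.358), nor did TNFRSF1A (0.09 ± 0.07, adjusted p = 0.555).

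Adaptors and other proteins of the receptor complex counted 1 rise and 0 falls among 18 measured at 6 h, and 0 rises and 1 fall at 24 h against vehicle. There were 1 rise and 1 fall between 24 h and 6 h. Both calls against vehicle were TNFAIP3, a ubiquitin-editing brake on NF-κB signalling. It read 9.39, 9.31 and 9.33 at 6 h, 8.79, 8.72 and 8.73 at 24 h, and 9.03, 8.93 and 9.01 in vehicle. It was above vehicle at 6 h by 0.36 ± 0.06 (limma adjusted p = 0.0153) and below it at 24 h by a difference of -0.24 ± 0.06 (adjusted p = 0.0480). The 6 h call was lost without any 1 of the 6 h arrays (up to 0.0832) or with only the compared groups. The 24 h call was lost in 8 of the 9 fits, all but that without vehicle replicate 2 (up to 0.136), under a replicate block, after median centring, with array weights and with only the compared groups. CASP10, the close relative of CASP8, was higher at 24 h than at 6 h by 0.27 ± 0.06 (adjusted p = 0.0236), but its 3 other probe sets had -0.03 to 0.03 and the call did not hold when 6 h replicate 1 or 2 or a 24 h array was left out (up to 0.104). TRADD did not pass in any comparison (adjusted p at least 0.156).

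Of 16 measured executioner caspases, their inhibitors and apoptosome proteins, 0 passed at 6 h in limma, at 24 h against vehicle 0 rose and 1 fell, and between 24 h and 6 h 2 rose and 1 fell. The fall against vehicle was CYCS, cytochrome c (-0.30 ± 0.07, limma adjusted p = 0.0292), a call lost without vehicle replicate 1 or 3, 6 h replicate 2 or any single 24 h array (up to 0.100), under a replicate block, after median centring and with only the compared groups. XIAP, which blocks the executioners, had 0.34 ± 0.10 (adjusted p = 0.0836). In the BCL2 family, whose member BID links caspase-8 to mitochondria, 1 of 16 rose and 0 fell at 6 h, and 0 of 16 passed at 24 h against vehicle in limma. The rise was PMAIP1, a pro-apoptotic BH3-only protein (0.65 ± 0.09, adjusted p = 0.00446), which held in all 9 such fits. Between 24 h and 6 h 3 rose and 1 fell, with BAX (0.50 ± 0.09, adjusted p = 0.00580) and BOK (0.39 ± 0.06, adjusted p = 0.00333) the largest rises. A second BOK probe set had -0.03. BID had -0.23 ± 0.07 between 24 h and vehicle (adjusted p = 0.136).

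In the NF-κB arm, through which the receptors can also signal, 2 of 19 rose and 0 fell at 6 h, and 1 rose and 0 fell at 24 h against vehicle. In the comparison of 24 h with 6 h 2 rose and 2 fell. RELB (0.46 ± 0.08, limma adjusted p = 0.0153) and the inhibitor NFKBIA (0.35 ± 0.06, adjusted p = 0.0122) were the 6 h rises. RELB was lost without vehicle replicate 1 or 6 h replicate 1 or 3 (up to 0.0796) and NFKBIA without vehicle replicate 1 or 6 h replicate 1 or 2 (up to 0.0720). RBCK1, a subunit of the linear ubiquitin ligase, was the rise at 24 h (0.48 ± 0.06, adjusted p = 0.00113).

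Programmes known to act on TNFSF10 or its receptors were counted in the same way. Of 36 measured interferon response genes, 0 rose and 1 fell at 6 h, 3 rose and 1 fell at 24 h against vehicle, and 5 rose and 2 fell between 24 h and 6 h. The median log2 difference from vehicle was 0.006 at 6 h and 0.03 at 24 h. With 1 array left out, the rises numbered 0 to 2 at 24 h against vehicle and 1 to 6 between 24 h and 6 h. Of the 3 rises at 24 h against vehicle, IFI35 (0.41, limma adjusted p = 0.0175) held in 5 of the 9 fits that left out 1 array, the losses being those without vehicle replicate 1, vehicle replicate 3, 24 h replicate 2 and 24 h replicate 3 (up to 0.0708). IFIT5 was lost in all of these fits but that without 24 h replicate 3 (up to 0.129), and MX2 in all but that without 6 h replicate 2 (up to 0.0887). All 3 were lost with only the compared groups, and IFIT5 and MX2 also under a replicate block. The fall of GBP2 (-0.37, adjusted p = 0.00705) held in all 9, although its other probe set had 0.01. The 6 h fall was IRF2, an interferon regulatory factor (-0.32 ± 0.06, limma adjusted p = 0.0296), which was lost in 7 of the 9 fits that left out 1 array, all but those without vehicle replicate 2 or 24 h replicate 2 (up to 0.143), under a replicate block and with only the compared groups. IRF2 was higher at 24 h than at 6 h by 0.55 ± 0.06 (adjusted p = 4.23e-04).

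Of 20 FOXO factors and targets, 1 rose and 1 fell at 6 h, 5 rose and 0 fell at 24 h against vehicle, and 5 rose and 0 fell between 24 h and 6 h. The 6 h rise was FOXO1 (0.35 ± 0.08, limma adjusted p = 0.04997), lost in 8 of the 9 fits that left out 1 array, all but that without vehicle replicate 3 (up to 0.177), under a replicate block, after median centring and with only the compared groups. BCL6, a transcriptional repressor, was the 6 h fall (-0.82 ± 0.07, limma adjusted p = 1.61e-04). It was also higher at 24 h than at 6 h (0.92 ± 0.07, adjusted p = 3.84e-05) and had 0.09 ± 0.07 between 24 h and vehicle (adjusted p = 0.550). FOXO1 rose at 24 h (0.54 ± 0.08, adjusted p = 0.00249), although its 2 other probe sets had 0.08 and 0.11. FOXO3 had -0.17 ± 0.06 at 6 h (adjusted p = 0.253).

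Of 23 p53 targets outside the members, 0 rose and 3 fell at 6 h, and the list's median was -0.17 against 0.004 for all genes. PTCHD4 (-1.06 ± 0.07, limma adjusted p = 4.08e-05) and TP53INP1 (-0.51 ± 0.07, adjusted p = 0.00749) led the falls, although 2 other TP53INP1 probe sets had -0.08 and 0.27. At 24 h against vehicle 1 rose and 3 fell, with FAS and the cell cycle inhibitor CDKN1A (-0.40 ± 0.07, adjusted p = 0.00922) among the falls. Between 24 h and 6 h the direction differed: 5 p53 targets rose, PTCHD4 (0.86 ± 0.07, adjusted p = 8.64e-05) and TP53INP1 (0.67 ± 0.07, adjusted p = 4.26e-04) the most, and 2 fell. The 2 other TP53INP1 probe sets ran the other way in that comparison, with -0.26 and -0.16. The list for endoplasmic reticulum stress and CHOP held 22 measured genes. Of these, 3 rose and 0 fell at 6 h, and 6 rose and 0 fell at 24 h against vehicle. Between 24 h and 6 h 7 rose and 2 fell. ASNS, VLDLR and ATF4 (0.88 ± 0.07, limma adjusted p = 8.86e-05) had the largest rises at 24 h against vehicle. The other ASNS probe set had only 0.16 in that comparison. DDIT3, which encodes CHOP itself, had -0.11 ± 0.08 at 24 h (adjusted p = 0.515). Over all lists, 210 distinct genes were measured, and 17, 25 and 46 were called at 6 h against vehicle, at 24 h against vehicle and between 24 h and 6 h. Of these, 7, 17 and 30 held in all 9 fits that left out 1 array.

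**Figure D4:**
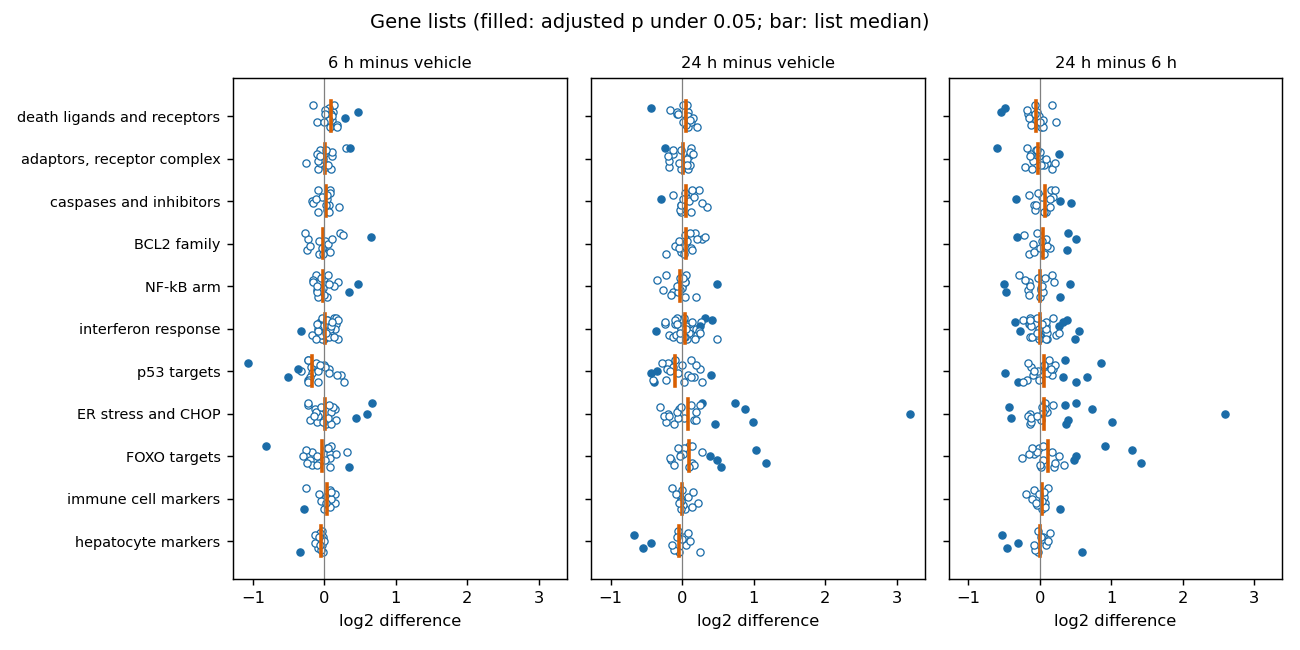
Log2 difference of each measured gene of the 11 lists, the members left out, for 6 h minus vehicle, 24 h minus vehicle and 24 h minus 6 h, all on 1 horizontal scale. Filled points have a limma adjusted p under 0.05 and the orange bars are list medians, of which that of the p53 targets at 6 h (-0.17) lies furthest from 0.

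The genes whose pattern over the 9 arrays was most like that of TNFSF10 on 202688_at, among 9886 genes above the median signal, were CDC14B, FAM168A, SLC22A23, SLC6A6, PPP1R16A and SMLR1, with Pearson r of 0.980, 0.973, 0.972, 0.971, 0.970 and 0.969. The arrays shared their groups, so the coefficients mostly reflect group means, and they carry no test. Their log2 differences between 6 h and vehicle ran from -1.02 for PPP1R16A to -0.32 for CDC14B. The same genes had -0.43 (PPP1R16A) to -0.10 (FAM168A) between 24 h and vehicle. None of the other 7 members was among them.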

How the data were processed

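Values were the deposited log2 probe set signals of 9 arrays, used without further transformation. The log2 values come from RMA as run by the authors, per the submitters' processing notes, which give no version. Of 54675 probe sets, 62 controls were left out and 54613 were tested. Of these, 41091 had 1 gene symbol in the platform annotation given, standing for 19775 genes.

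A model with 1 mean per group was fitted with limma 3.58.1 in R 4.3.3 to the 9 arrays together and moderated with eBayes (6 residual and 11.1 total degrees of freedom). Tests were two-sided and adjusted by Benjamini-Hochberg over the 54613 probe sets, with calls at an adjusted p under 0.05. The median SE of a log2 difference was 0.08. The fit was tested on simulated data. List genes were read by their brightest probe set, and 1 older symbol was matched through RefSeq names.

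The members and lists were chosen with earlier results of these data known. Named genes were the members, up to 3 called genes per list and comparison with the largest change, 10 core pathway genes (those without a probe set of 1 symbol are not analysed here), and the 6 genes most like TNFSF10. FOXO3, DDIT3, ALB and AFP were named after their values were seen. The number of arrays, 3 per group, limits precision. Nothing says that replicates are separate cultures, so p-values reflect the spread of these arrays alone, and that may be technical spread. Deviations of arrays with the same replicate number correlated at -0.20 to 0.09 over 9 pairs, so numbers were not used as pairs.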

Additional observations from a re-analysis of the deposited data

Results flagged for a closer look

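The limma test of 24 h against 6 h called 5 member probe sets. The shared vehicle group drops out of this difference, so the test does not remove time in culture. The log2 difference of 24 h minus 6 h was 0.88 on 202688_at, 0.67 on 202687_s_at and 0.58 on 214329_x_at for TNFSF10, -0.27 on 241371_at for TNFRSF10A and 0.38 on 227345_at for TNFRSF10D. The calls on 202687_s_at and 241371_at each held in only 4 of the 9 fits that left out 1 array. Both were also lost under a replicate block. TNFSF10 was chosen for its low values on the same 6 h arrays, which favours a positive difference, so its 3 values are not independent support. The same test called 46 list genes. Among them TNFAIP3, with -0.59 on 202644_s_at (adjusted p = 2.15e-04), had calls of opposite sign against vehicle, 0.36 at 6 h and -0.24 at 24 h. The 6 h call was lost without any single 6 h array, and the 24 h call held in 1 of the 9 fits that left out 1 array and was lost under a replicate block, median centring, array weights or only the compared groups.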

How the results depend on the processing

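Several of the 17 alternatives, such as the replicate block, cannot change a difference of group means or its direction. Over all 17, the direction of TNFSF10 on 202688_at was unchanged in each comparison. Its difference between 24 h and vehicle was -0.44 at an adjusted p of 0.0772 when only the compared groups entered the fit, which uses fewer samples, and ran from -0.54 to -0.34 with 1 array left out. Member probe sets called at 24 h against vehicle numbered 1, against 2 with an intensity trend and robust prior, above the median signal or with 1 probe set per gene, 0 with only the compared groups, and 0 to 2 with 1 array left out. Between 24 h and 6 h they numbered 5, against 3 with the replicate number as a block, 2 with 1 probe set per gene, where 8 member probe sets enter, and 3 to 5 with 1 array left out.

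All probe sets called at 6 h against vehicle numbered 802, against 466 with the replicate block, 1491 with the trend and robust prior, 1552 above the median signal, 354 with only the compared groups, and 275 to 640 with 1 array left out. At 24 h against vehicle they numbered 2396, against 3634 with the trend and robust prior, 1205 with only the compared groups, and 1369 to 2607 with 1 array left out. Between 24 h and 6 h they numbered 4181, against 2729 with 1 probe set per gene and 2167 to 4956 with 1 array left out. List genes called at 6 h against vehicle numbered 17, against 10 with only the compared groups and 8 to 15 with 1 array left out. At 24 h against vehicle they numbered 25, against 46 with the trend and robust prior, 42 above the median signal and 42 with the mean of all probe sets of a gene. The cause of these shifts was not tested. Replicate numbers are shared by the groups but give no pairing.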
